A study of Mus musculus with 3 samples.

Results

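The enzymes that make, break down and respond to the cyclic nucleotides cAMP and cGMP were followed across the cell classes of the mouse nucleus accumbens. Members were the genes whose symbols begin with Adcy, Gucy, Pde or Prkg followed by a digit, or with Prkaa, Prkac or Prkar, and that had at least 10 UMIs in the whole matrix. A UMI is a molecular tag by which copies of 1 RNA molecule are counted once. Of 28001 features, 55 symbols matched and 47 passed the minimum of 10 UMIs, and 8 fell under it. The letters also caught 5 genes that are no cyclic nucleotide enzyme or kinase: Prkaa1 and Prkaa2 (AMP-activated kinase), Pde4dip (a centrosome and Golgi scaffold), Pde12 (a mitochondrial enzyme that trims RNA tails) and Pde6d (a carrier of prenylated proteins). These are counted apart from the 42 true members.

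The data came from 3 samples of 1 group: Thy1::ChR2 mice, in which the Thy1 promoter drives channelrhodopsin in neurons, labelled with FLiCRE while channelrhodopsin in the nucleus accumbens was stimulated, with a coronal piece of 400 um dissected. FLiCRE is a reporter system that marks cells in which light and a rise in calcium coincide. Age and sex are not given in the labels used here, and no unstimulated or unlabelled group was analysed, so each comparison was between cell classes of the same libraries. The 3 libraries are numbered by the suffix of the cell barcodes, and that number is only a name. Nothing in the labels says that the samples came from separate animals, so p-values speak only of these libraries. The edgeR test also draws on the spread of all genes tested. Its p-values and standard errors (SE) thus do not measure a gene's own spread between libraries alone.

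As background, adenylyl cyclases make cAMP under the control of stimulatory and inhibitory G proteins, and guanylyl cyclases make cGMP, in the soluble form under the control of nitric oxide. Phosphodiesterases degrade both, each family with its own preference for cAMP or cGMP, and protein kinases A and G (PKA and PKG) carry the signals on. In the striatum, dopamine raises cAMP in spiny projection neurons with D1 receptors and lowers it in those with D2 receptors, which also carry the stimulatory adenosine receptor encoded by Adora2a.

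Cells were put in classes by fixed marker lists that held no member. The 9923 cells kept (2306, 5783 and 1834 in libraries 1, 2 and 3) had median totals of 985.5, 2084 and 2674 UMIs. The classes that the results use held 1429 Drd1-type and 1018 Adora2a-type neurons, 195 glutamatergic neurons, 703 astrocytes, 1082 oligodendrocytes, 100 oligodendrocyte precursors, 280 microglia, 229 MHC class II myeloid cells, 379 endothelial cells and 231 mural cells (pericytes and smooth muscle). Libraries 1 and 2 shared 13 barcode sequences, 1 and 3 shared 7, and 2 and 3 shared 22. Levels are UMIs per 1000000 UMIs of the class in a library (CPM), so fewer cells and less RNA per cell cannot be told apart in a sum, and levels are compared between classes within a gene.

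Most markers kept out of the gates separated the classes. Tac1 was 1802, 2602 and 2099 CPM in Drd1-type neurons of libraries 1, 2 and 3 against 200, 318 and 164 in Adora2a-type neurons, and Penk was 391, 813 and 1823 against 6621, 7204 and 8871. Drd2, a defining marker of the Adora2a-type neurons, was at or near 0 in both (4.83, 0.377 and 0 CPM against 0, 4.59 and 0), so that class rests on Adora2a and the other markers. Pdyn and Isl1 were higher in Drd1-type neurons, and Gpr6 and Sp9 in Adora2a-type neurons, in each library. Eya1, held out for Drd1-type neurons, did not separate the types (0, 4.14 and 4.45 CPM against 4.08, 4.01 and 1.58), and Gpr52, held out for Adora2a-type neurons, had 0 UMIs in either type. Of the Drd1-type neurons, 693 (48.5%) carried exactly 1 Drd1 UMI, and of the Adora2a-type neurons 388 (38.1%) carried exactly 1 Adora2a UMI. Neuronal RNA was also counted in non-neuronal cells: Gad1, which makes the transmitter GABA, was 1.44, 61.1 and 5.46 CPM there in libraries 1, 2 and 3, against 410, 629 and 471 in neurons. Library 2 thus stood apart in Gad1. It also held 1182 of the 1583 cells that met 2 class lists and were left out. Such cells made up 5.72%, 20.4% and 14.7% of the cells kept in libraries 1, 2 and 3.

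**Figure D1:**
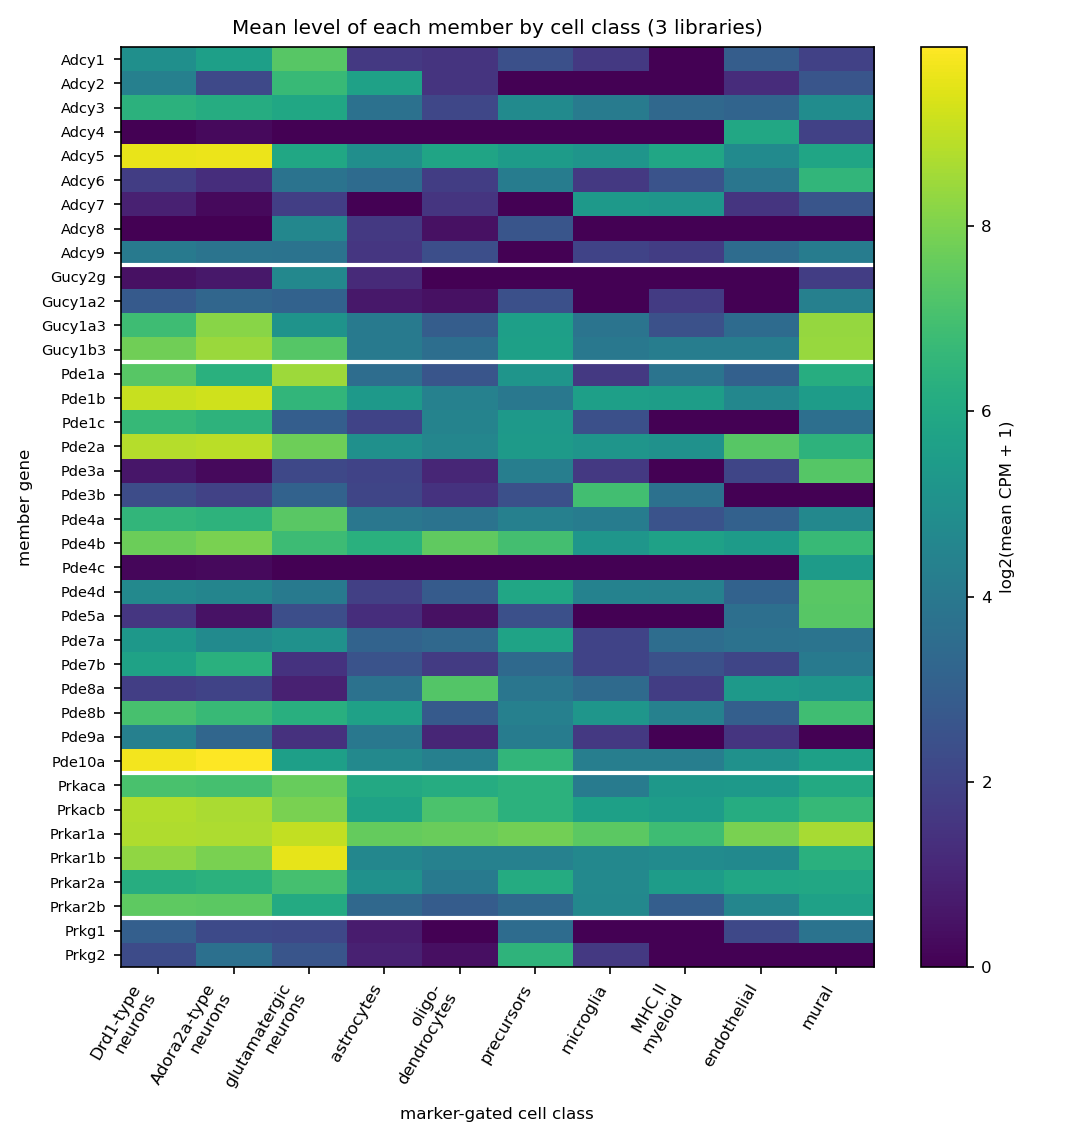
Mean CPM over 3 libraries, as log2(mean CPM + 1), of the 38 true members that reached 10 CPM in a class (rows, white lines between adenylyl cyclases, guanylyl cyclases, phosphodiesterases, PKA and PKG) in 10 cell classes (columns). Adcy5, Pde1b and Pde10a are brightest in Drd1-type and Adora2a-type neurons, and Pde3a, Pde4c and Pde5a in mural cells.

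Between the spiny neuron types, the clearest difference lay in nitric oxide-sensitive guanylyl cyclase. Both of its main subunits, alpha 1 (Gucy1a3) and beta 1 (Gucy1b3), were lower in Drd1-type than in Adora2a-type neurons, while Pde1a and Adcy2 were higher in Drd1-type neurons. With edgeR's quasi-likelihood test at an adjusted p under 0.05, 267 of 8563 genes (3.12%) differed between the types. Among the members, 29 of 47 passed the filter on low counts and 4 passed the test, with 2 higher (background 1.66%) and 2 lower (background 1.46%) in Drd1-type neurons. Of the 2 higher, Adcy2 passed that filter through its Drd1-type sums alone. Such a gene had to differ, so its call adds nothing to the count. The median log2 fold change of the members tested was -0.03, beside -0.01 over all genes. Members that do not overlap between the types over the 3 libraries numbered 6 of 47, beside 995 of 15557 features (6.4%) of at least 10 UMIs. These were Adcy2, Gucy1a3 and Gucy1b3, which passed the test, Pde6d, which did not, and Gucy1a2 and Prkg2, which had too few UMIs to be tested.

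Gucy1a3 and Gucy1b3 (Gucy1a1 and Gucy1b1 in RefSeq) are neighbours on chromosome 3, on the minus strand. Gucy1b3 runs from 82032004 to 82074711 and Gucy1a3 from 82092427 to 82145946 in GRCm38.p6, with 17715 bases between them. Their promoters are shown because the levels of both genes differed the same way, from 250 bases before to 50 bases after a start listed in RefSeq, 5′ to 3′. For Gucy1a3, 2 starts are listed; the window shown is that of the outer one, which itself lies inside the annotated gene. Capitals mark matches to TGACG, the core of the cAMP response element, or to CCAAT. On the other strand the former reads CGTCA and the latter reads ATTGG, and in the Gucy1b3 window these overlap once.
Gucy1a3 (chr3:82145601-82145900): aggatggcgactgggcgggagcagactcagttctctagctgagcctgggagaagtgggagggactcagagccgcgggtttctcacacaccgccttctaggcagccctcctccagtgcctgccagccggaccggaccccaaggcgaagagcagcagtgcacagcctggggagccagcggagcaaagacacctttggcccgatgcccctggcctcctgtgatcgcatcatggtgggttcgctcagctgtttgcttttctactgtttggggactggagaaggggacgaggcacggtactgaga
Gucy1b3 (chr3:82074662-82074961): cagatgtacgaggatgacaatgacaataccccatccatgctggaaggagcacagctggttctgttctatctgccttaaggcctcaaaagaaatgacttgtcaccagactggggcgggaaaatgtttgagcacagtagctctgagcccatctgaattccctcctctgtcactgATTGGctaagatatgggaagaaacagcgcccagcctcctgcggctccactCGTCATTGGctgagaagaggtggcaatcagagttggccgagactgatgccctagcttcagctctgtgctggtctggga
The Gucy1b3 window held 1 match to TGACG and 2 to CCAAT. The Gucy1a3 window held neither, which says only that these letters are not in it. TGACG occurs in 21% and CCAAT in 37.9% of 27025 promoter windows of this length, and the full palindrome TGACGTCA, found in neither gene's window, in 1.88%.

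Gucy1a3 was 62.8, 177 and 102 CPM in Drd1-type neurons of libraries 1, 2 and 3, and 253, 340 and 268 CPM in Adora2a-type neurons. The types do not overlap, and the ratio of Drd1-type to Adora2a-type was 0.248, 0.521 and 0.382. The means were 114 ± 58.2 and 287 ± 46.8 CPM (SD, n = 3 libraries), a log2 fold change of -1.16 (SE 0.109, edgeR adjusted p = 5.27e-14). Taken by library, the log2 ratio of Gucy1a3 had a mean of -1.45 and an SD of 0.54. Gucy1b3 was 145, 249 and 256 CPM against 302, 395 and 342 CPM, again with every Adora2a-type value above every Drd1-type value. Its ratio was 0.48, 0.631 and 0.748 and its log2 fold change -0.65 (SE 0.093, edgeR adjusted p = 1.89e-07). Gucy1a2, the alternative alpha 2 subunit, was low in both at 4.83, 7.53 and 5.56 against 8.16, 8.6 and 9.45 CPM, and was not tested.

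Pde1a, a phosphodiesterase that calcium and calmodulin switch on, was 96.6, 183 and 208 CPM in Drd1-type neurons against 16.3, 126 and 89.8 CPM in Adora2a-type neurons. It was higher in Drd1-type neurons within each library, although the types overlap, because its level also differed between libraries. The ratio was 5.92, 1.46 and 2.32 and the log2 fold change 0.79 (SE 0.131, edgeR adjusted p = 1.40e-05). Taken by library, the log2 ratio of Pde1a had a mean of 1.44 and an SD of 1.03. Adcy2, an adenylyl cyclase that G protein beta-gamma subunits stimulate, was 19.3, 15.4 and 22.2 CPM (4, 41 and 20 UMIs) in Drd1-type neurons. In Adora2a-type neurons it was 0, 4.59 and 6.3 CPM (0, 8 and 4 UMIs), where 3 UMIs would be 12.2 CPM in library 1. The means of Adcy2 were 19 ± 3.41 and 3.63 ± 3.26 CPM (SD, n = 3) and its edgeR adjusted p was 0.00157. It passed the filter on low counts through its Drd1-type sums alone, so such a gene had to differ, and with no such filter its adjusted p in edgeR was 0.0472.

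The Adcy2 UMIs of the Adora2a-type neurons lay mostly in cells with a UMI of Tshz1 or Pcdh8, genes of a spiny neuron subtype that carries Drd1. In those cells it had 0, 6 and 4 UMIs, and in the other Adora2a-type neurons 0, 2 and 0. In Drd1-type neurons its level was 24.6, 15.4 and 22.2 CPM with these genes and 18, 15.5 and 22.3 CPM without. Gucy1a3 was 351, 372 and 296 CPM in the Adora2a-type neurons with these genes, against 49.1, 212 and 127 CPM in the Drd1-type neurons with them. Whether those Adora2a-type cells belong to that subtype was not tested. With all cells carrying Tshz1 or Pcdh8 left out, Adcy2 had too few UMIs to be tested, and the other 3 calls held. DESeq2 gave Adcy2 an adjusted p of 0.719, and it was not called in 5 of 14 alternatives, in 3 of which it had too few UMIs to be tested. With the library left out of the edgeR design as block, none of the 4 members passed (0 calls, 3 members at an unadjusted p under 0.05), so the calls rest on the comparison within libraries.

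**Figure D2:**
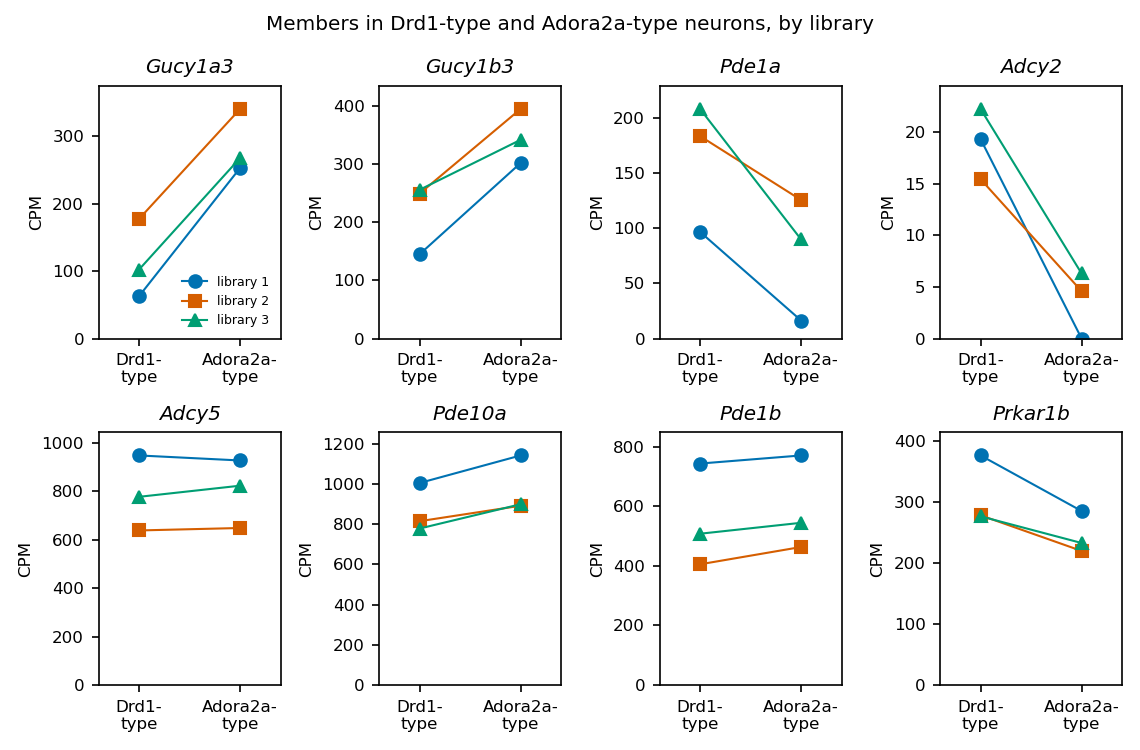
CPM of 8 members in Drd1-type and Adora2a-type neurons (x axis), with 1 line and marker for each of the 3 libraries and each y axis from 0. The lines of Gucy1a3 and Gucy1b3 run up and those of Pde1a and Adcy2 run down from Drd1-type to Adora2a-type in each library, and those of Adcy5 run in both directions.

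The enzymes best known from spiny neurons did not pass the test between the types. Adcy5, the main striatal adenylyl cyclase, which the receptors of Drd1 and Adora2a stimulate, was 947, 638 and 776 CPM in Drd1-type and 926, 648 and 822 CPM in Adora2a-type neurons. Its ratio was 1.02, 0.984 and 0.944 (log2 fold change -0.07, SE 0.069, edgeR adjusted p = 0.821). Pde10a, which degrades both cyclic nucleotides and is concentrated in striatum, was 1005, 815 and 779 against 1142, 892 and 899 CPM. Its ratio was below 1 in each library, at 0.88, 0.914 and 0.866, and the log2 fold change of -0.20 (SE 0.067, edgeR adjusted p = 0.0822) did not pass. Pde1b, the PDE1 form best known from striatum, was 744, 406 and 508 against 771, 464 and 545 CPM (log2 fold change -0.17, edgeR adjusted p = 0.326). The differences between libraries were larger than those between types for these 3 genes.

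Promoter windows of Adcy5 and Pde10a, both on the plus strand, are shown because these genes set spiny neurons apart from glutamatergic neurons in the results that follow.
Adcy5 (chr16:35154614-35154913): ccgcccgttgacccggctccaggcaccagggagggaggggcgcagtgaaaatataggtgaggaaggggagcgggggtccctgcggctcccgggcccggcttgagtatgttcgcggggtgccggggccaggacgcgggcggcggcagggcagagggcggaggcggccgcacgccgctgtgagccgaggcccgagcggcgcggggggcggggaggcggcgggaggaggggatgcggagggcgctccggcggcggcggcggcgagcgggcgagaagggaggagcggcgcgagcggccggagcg
Pde10a (chr17:8801495-8801794): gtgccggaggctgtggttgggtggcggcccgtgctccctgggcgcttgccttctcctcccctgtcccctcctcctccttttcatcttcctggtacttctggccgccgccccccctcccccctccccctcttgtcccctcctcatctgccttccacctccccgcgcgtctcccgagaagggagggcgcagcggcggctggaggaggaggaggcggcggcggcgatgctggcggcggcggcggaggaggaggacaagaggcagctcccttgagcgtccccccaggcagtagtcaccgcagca
Neither window held TGACG or CCAAT on either strand, so no letters are in capitals. The Adcy5 window lies inside the annotated gene, which begins at 35154494 on chromosome 16. For Pde10a, 2 starts are listed, both well inside the annotated gene, which begins at 8525187 on chromosome 17. The outer one is shown, and other starts were not searched.

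Among the other phosphodiesterases, Pde2a, which cGMP stimulates, was 522, 400 and 440 CPM in Drd1-type and 538, 463 and 444 CPM in Adora2a-type neurons (log2 fold change -0.15, edgeR adjusted p = 0.48). Of the cAMP-specific forms, Pde4b gave a log2 fold change of -0.21 (adjusted p = 0.439), Pde4d -0.20 (0.866), Pde7b -0.25 (0.645) and Pde8b 0.12 (0.832) in edgeR. Pde1c, the third calcium-dependent form, gave -0.07 (edgeR adjusted p = 0.925). None of these passed the test, and their values overlap between the types.

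The PKA subunits also overlap between the types. The catalytic subunits Prkaca and Prkacb gave log2 fold changes of -0.02 (edgeR adjusted p = 0.986) and 0.08 (0.831). Prkacb was 430, 425 and 473 CPM in Drd1-type and 400, 386 and 450 CPM in Adora2a-type neurons. Of the regulatory subunits, which hold the kinase inactive until cAMP binds, Prkar1b was the one with the largest difference, at 377, 279 and 277 CPM against 286, 220 and 233 CPM. Its ratio was above 1 in each library, at 1.32, 1.27 and 1.19, with a log2 fold change of 0.29 (SE 0.094) and an edgeR adjusted p of 0.0791. Prkar1a (0.09, 0.812), Prkar2a (-0.07, 0.934) and Prkar2b (0.12, 0.796) did not pass either, given as log2 fold change and edgeR adjusted p. The cyclases Adcy1, which calcium stimulates, and Adcy3, best known from cilia, gave -0.55 (edgeR adjusted p = 0.11) and 0.09 (0.909).

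The cGMP-dependent kinases were sparse in spiny neurons. Prkg2, the membrane-bound form, was 4.83, 4.52 and 2.22 CPM in Drd1-type neurons (1, 12 and 2 UMIs) and 12.2, 7.45 and 15.8 CPM in Adora2a-type neurons (3, 13 and 10 UMIs). The types do not overlap, and the ratio was 0.395, 0.606 and 0.141, but the gene was under the low-count filter and has no test. Prkg1, the form known from smooth muscle, was 9.66, 4.9 and 6.67 against 0, 6.3 and 4.73 CPM.

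Of 42 partner genes of the pathway (G protein subunits, PKA anchors and inhibitors, cAMP-regulated phosphoproteins, CREB family, channels and others), 31 were tested and 5 passed, with 4 lower (background 1.46%) and 1 higher (background 1.66%) in Drd1-type neurons. Arpp19, a cAMP-regulated inhibitor of protein phosphatase 2A, was 1082, 1206 and 1147 CPM against 1660, 1838 and 1891 CPM, a log2 difference of -0.69 with SE 0.062 (edgeR adjusted p = 4.61e-15). Arpp21, a cAMP-regulated phosphoprotein that binds RNA, was 2744, 2161 and 3123 against 3411, 2818 and 4178 CPM (-0.42, edgeR adjusted p = 1.29e-08). Arpp19 does not overlap between the types and Arpp21 does. Gng7, the gamma subunit that partners the striatal stimulatory G protein, was lower by a smaller amount (-0.36, edgeR adjusted p = 0.0178), as was Gnao1, the alpha subunit of Go (-0.27, 0.0444). Gnai1, an alpha subunit that inhibits adenylyl cyclase, was higher at 58, 130 and 92.3 CPM against 40.8, 73.9 and 61.4 CPM (0.71, edgeR adjusted p = 3.67e-04).

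Several of these partner calls depended on the settings. Of 14 alternatives, Arpp19 and Arpp21 passed in 13, Gnai1 in 11, Gng7 in 8 and Gnao1 in 5. Gng7, Gnao1 and Gnai1 did not pass with DESeq2 (3 partners called in all) or without library 2. Gng7 and Gnao1 were also lost without library 3, with no filter on low counts and with at least 3 class markers, and Gnao1 with no TMM scaling factor and without the cells carrying Tshz1 or Pcdh8, or the interferon response genes Isg15 or Ifit1. None of the 5 passed in edgeR with the library left out of the design. Gnas, which encodes the widely expressed stimulatory alpha subunit, had the largest difference of the 31 tested, at 58, 130 and 160 CPM in Drd1-type against 461, 335 and 791 CPM in Adora2a-type neurons. The types do not overlap, yet its edgeR adjusted p was 0.22 (log2 fold change -1.88). Gnas passed in 11 of the 14 alternatives, among them DESeq2, the package-default prior of edgeR, each library left out and the library left out of the design. It did not pass in cells of at least 1000 UMIs, with no removal of doublets by Scrublet or without cells carrying Tshz1 or Pcdh8. The striatal stimulatory subunit Gnal, at 734, 700 and 832 against 767, 689 and 860 CPM, and Ppp1r1b (DARPP-32), the PKA target that inhibits protein phosphatase 1, at 3009, 1407 and 1895 against 2819, 1316 and 1816 CPM, did not pass (edgeR adjusted p = 0.876 for each). Crtc1, a CREB coactivator, and Gnaz, an inhibitory alpha subunit, gave 0.50 (edgeR adjusted p = 0.0688) and 0.52 (0.0698).

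A marker of the interferon response differed between the libraries and moved with the types: Isg15 was 19.3, 146 and 81.2 CPM in Drd1-type and 0, 64.8 and 9.45 CPM in Adora2a-type neurons. Without cells carrying Isg15 or Ifit1, the 4 members still passed, and Pde10a passed as well, with a log2 fold change of -0.23 (edgeR adjusted p = 0.0376).

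Spiny neurons (both types summed) differed from glutamatergic neurons in more members. Of 6945 genes, 1110 (16%) passed the edgeR test, 7.08% higher and 8.9% lower in spiny neurons. Among 26 members tested, 15 passed, with 10 higher and 5 lower, and the median log2 fold change was 0.68 beside 0.00 over all genes. The glutamatergic neurons come from the same coronal piece, and their held-out marker Slc30a3, a zinc transporter of glutamatergic terminals, was 178, 220 and 291 CPM against at most 6.3 CPM in either spiny type.

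Adcy5 was 936, 642 and 795 CPM in spiny neurons and 38, 96 and 46 CPM in glutamatergic neurons (log2 fold change 3.49, SE 0.319, edgeR adjusted p = 5.51e-05). Pde10a was 1079, 845 and 829 against 25.4, 93.4 and 25.6 CPM (4.04, SE 0.360, edgeR adjusted p = 5.21e-05). Library 2 gave the smallest ratio of each, with Pde10a ratios of 42.6, 9.05 and 32.4 and Adcy5 ratios of 24.6, 6.69 and 17.3. Pde7b, a cAMP-specific phosphodiesterase, was 77.4, 55 and 64.5 CPM in spiny neurons and 0, 5.19 and 0 CPM (2 UMIs in all) in glutamatergic neurons (edgeR adjusted p = 3.62e-04). Pde1b was 759, 429 and 523 against 63.4, 117 and 94.6 CPM (log2 fold change 2.36), and Pde1c 97.3, 78.4 and 97.1 against 0, 13 and 7.67 CPM (3.19). Pde7b and Pde1c passed the filter on low counts through their spiny sums alone, so such genes had to differ.

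The guanylyl cyclase subunits were also higher in spiny neurons, alpha 1 by more than beta 1. Gucy1a3 was 166, 242 and 171 against 38, 38.9 and 23 CPM (log2 fold change 2.61, edgeR adjusted p = 7.47e-05), and Gucy1b3 230, 307 and 291 against 228, 112 and 135 CPM (0.94, edgeR adjusted p = 0.0302). In library 1 the ratio of Gucy1b3 was 1.01. Pde2a, Prkar2b and Prkacb were higher in spiny neurons by 1.20, 1.23 and 0.84 on the log2 scale.

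The members lower in spiny neurons were Adcy2, Adcy1, Prkar1b, Pde4a and, outside the family, Prkaa2, a catalytic subunit of AMP-activated kinase. Adcy2 was 8.85, 11.1 and 15.6 CPM in spiny and 114, 80.4 and 110 CPM in glutamatergic neurons (log2 fold change -2.99, SE 0.279, edgeR adjusted p = 5.98e-05). It passed the filter on low counts through its glutamatergic sums alone, so such a gene had to differ. Adcy1 was 24.3, 41.6 and 48.2 against 330, 77.8 and 86.9 CPM (-1.55, edgeR adjusted p = 0.0295), with library 1 far above the other libraries in glutamatergic neurons. Prkar1b showed the same high library 1, at 327, 255 and 259 against 1154, 571 and 565 CPM (-1.37, edgeR adjusted p = 7.65e-04). Pde1a was 53.1, 160 and 159 CPM in spiny and 761, 114 and 187 CPM in glutamatergic neurons, so its ratio was 0.0698, 1.41 and 0.852 and it did not pass (edgeR adjusted p = 0.465). The glutamatergic sum of library 1 held 41 cells and 78886 UMIs, so 3 UMIs equal 38 CPM there.

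With 2 libraries the count moved in both directions: 23 of 32 members tested passed without library 1, 6 of 27 without library 2 and 5 of 26 without library 3. The share of all genes that passed was not worked out for these settings, so the moves cannot be called particular to the members. Adcy2, Adcy5, Gucy1a3 and Pde10a were the 4 members that passed without each library in turn. Of these, Adcy2 passed the filter on low counts of the main fit through its glutamatergic sums alone. With all libraries and no such filter, 14 of the 15 calls held, Adcy2, Pde7b and Pde1c among them. Pde7b was lost without library 2, and Pde1b and Pde1c without library 3. With all libraries, Gucy1b3 (adjusted p = 0.101) and Prkacb (0.053) were lost in DESeq2, and Adcy1 in edgeR with no filter on low counts (0.0683) or with the broader gate (0.0709).

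**Figure D3:**
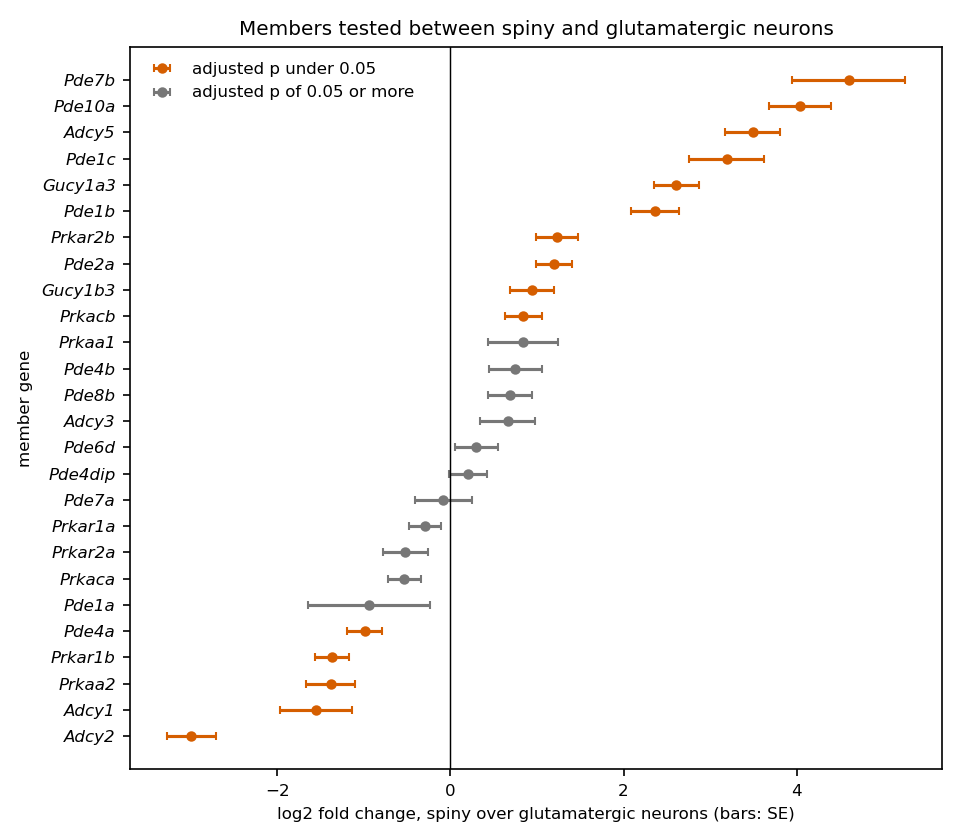
Log2 fold change of spiny over glutamatergic neurons (x axis, bars are standard errors) of the 26 members tested, 22 of them in the family, ordered by value, with members of adjusted p under 0.05 in orange. Of the 15 in orange, 10 lie right of 0, among them Pde10a at 4.04, and 5 left of 0, among them Adcy2 at -2.99. The point of Pde7b rests on 2 UMIs in glutamatergic neurons and gives no rank.

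Between all neurons and all non-neuronal cells, 7560 of 11826 genes (63.9%) passed, 30.9% higher and 33% lower in neurons, so calls are common there. Of 37 members tested, 31 passed, with 24 higher and 7 lower in neurons, and the median log2 fold change was 1.46 beside -0.03 over all genes. The members higher in neurons by the most were Pde10a (795, 685 and 567 CPM in neurons against 6.48, 54.5 and 15.4 CPM; log2 fold change 4.61, edgeR adjusted p = 2.97e-04) and Adcy1 (87.6, 51.4 and 68.9 against 1.44, 3.08 and 2.98 CPM; 4.22, edgeR adjusted p = 7.95e-05). Pde1b (3.65), Prkar1b (3.61), Adcy5 (3.53), Pde1a (3.52), Prkar2b (3.30) and Pde7b (3.11) followed on the log2 scale. Of the kinase subunits, Prkacb (1.73), Prkar2a (1.06), Prkaca (0.83) and Prkar1a (0.62) differed by less. The call of Prkar1a was lost without library 1 (edgeR adjusted p = 0.0698), without library 3 (0.117) and with the library left out of the design (0.0508).

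Library 2 gave the smallest ratio of neurons to non-neuronal cells for 20 of the 24 members higher in neurons. The share over all genes higher in neurons was not worked out, so this cannot be called particular to the members. Prkar2b, for example, was at a ratio of 112, 5.99 and 11.9, with 1.44, 25.5 and 11.4 CPM in non-neuronal cells. Gad1 and Penk moved the same way in non-neuronal cells (1.44, 61.1 and 5.46 CPM, and 23.8, 225 and 67.5 CPM), and their part in the result was not tested.

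Lower in neurons were Adcy4, Pde8a, Pde5a, Pde3a, Pde3b, Adcy6 and the carrier Pde6d. The call of Adcy6 was lost without library 2 (edgeR adjusted p = 0.0585) or 3 (0.0816). Pde8a, a cAMP-specific phosphodiesterase, was 3.41, 2.24 and 1.09 CPM in neurons and 64.1, 57.2 and 97.2 CPM in non-neuronal cells (log2 fold change -5.43, edgeR adjusted p = 7.52e-05). Adcy4 had 1 UMI in 4448 neurons and 40 UMIs in 3107 non-neuronal cells. Pde8a, Adcy4 and Pde5a passed the filter on low counts through their non-neuronal sums alone, and Adcy1 through its neuron sums alone, so such genes had to differ. With no such filter, all 31 calls of the comparison held. Pde4b and Pde4d did not pass, and the direction of Pde4d changed without library 3.

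Each of 8 classes was then compared with the mean of the other classes in 1 fit of 6159 genes, in which 27 members were tested and 72 of 216 values of member and class passed. The share of all genes that passed was worked out for each class only, and stands beside its count. The total of 72 thus cannot be called particular to the members. The neurons held 20 members above the mean of the other classes (background 43.2%) and 1 below, Pde8a (background 19.2%). Where a gene had 0 UMIs in some class, its CPM is given in place of a fold change. A gene could pass the filter on low counts of this fit through 1 class alone, and such a gene had to come out higher there. This held for Pde5a and Adcy6 in mural cells, Pde8a in oligodendrocytes, Pde3b in microglia and Prkg2 in precursor cells, and may hold for others. With no such filter, 63 of the 72 calls held, these among them.

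Mural cells, the contractile cells of small vessels, had 10 members above the mean of the other classes (background 10.9%) and 0 below (background 6.48%; in edgeR and in DESeq2 also 0 below at an unadjusted p under 0.05). Among them were the soluble guanylyl cyclase and phosphodiesterases that act on cGMP. Gucy1a3 was 272, 367 and 339 CPM there (log2 fold change 3.89, edgeR adjusted p = 4.62e-13) and Gucy1b3 170, 478 and 355 CPM (3.42, edgeR adjusted p = 3.09e-13). The mural mean of Gucy1a3, 326 ± 49 CPM, was close to the 287 ± 46.8 CPM of Adora2a-type neurons (SD, n = 3), which were not tested against each other. Pde5a, the cGMP-specific phosphodiesterase that vasodilator drugs inhibit, was 204, 140 and 149 CPM in mural and 16.7, 12.6 and 4.93 CPM in endothelial cells (edgeR adjusted p = 4.44e-13 for mural cells). Pde3a, a cAMP phosphodiesterase that cGMP inhibits, was 170, 169 and 140 CPM (edgeR adjusted p = 1.44e-13). A member that passed the filter on low counts through the mural sums alone, such as Pde5a, could only come out above, so the counts above and below are partly fixed by the filter.

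On the cAMP side, Adcy6, a close relative of Adcy5, was 136, 66.1 and 74.3 CPM in mural cells (log2 fold change 3.55, edgeR adjusted p = 1.65e-06), and Pde4d was 102, 279 and 124 CPM (3.48, edgeR adjusted p = 5.28e-10). Pde1a (2.42), Prkar2b (1.52) and Prkar1a (0.64) were higher by less, and Pde8b was 102, 125 and 124 CPM (edgeR adjusted p = 8.93e-05). Of the UMIs of PKA regulatory subunits in mural cells, Prkar2b took 0%, 11.9% and 11.5% in libraries 1, 2 and 3. The neuronal gene Gad1 was 0, 80.8 and 0 CPM there. The part of neuronal RNA in the value of Prkar2b was not tested. Pde4c was 34, 44.1 and 49.6 CPM in mural cells, with 0 UMIs in endothelial cells, and Prkg1 was 0, 22 and 16.5 CPM, both untested. The mural sum of library 1 held 29421 UMIs, so 3 UMIs equal 102 CPM, and it also held 1631 CPM of the myeloid gene Lyz2, against at most 249.8 CPM in libraries 2 and 3. The part of Lyz2-expressing cells in the result was not tested, and Gucy1a3, Pde3a, Pde5a, Adcy6 and Pde4d passed without each library in turn.

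Endothelial cells had 3 members above (background 19%) and 6 below (background 11.5%) the mean of the other classes. Pde2a was 190, 113 and 183 CPM (log2 fold change 1.54, edgeR adjusted p = 3.49e-04), and Pde8a 27.9, 37.7 and 54.3 CPM (edgeR adjusted p = 0.0056; 0.0771 without library 2). Pde5a was the third, on 3, 3 and 1 UMIs (edgeR adjusted p = 0.0356), and its call was lost without library 1 or 2, with no filter on low counts, with at least 3 class markers and in cells of at least 1000 UMIs. Adcy4 was 55.8, 75.4 and 54.3 CPM in endothelial cells and at most 8.26 CPM in any library of the other tested classes. It was not tested in this fit.

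Oligodendrocytes had 5 members above (background 23.1%) and 11 below (background 16.8%). Pde8a led, at 177, 128 and 158 CPM (log2 fold change 3.98, edgeR adjusted p = 1.61e-17). Pde4b was 168, 168 and 203 CPM (1.48, edgeR adjusted p = 3.94e-07), and Prkacb (0.95) and the carrier Pde6d (1.83) were also higher. Pde1c was 14, 24.7 and 23 CPM (edgeR adjusted p = 1.72e-04). In the 100 precursor cells, 2 members were above (background 10.1%) and 0 below in edgeR (background 4.27%; 1 at an unadjusted p under 0.05, and 0 called by DESeq2). They were Prkg2 at 101.1, 92.4 and 65 CPM, which is 2, 6 and 5 UMIs (edgeR adjusted p = 2.84e-06), and Pde1c on 1, 1 and 4 UMIs (edgeR adjusted p = 0.0264), whose call was lost without library 1 or 3, with no filter on low counts and in cells of at least 1000 UMIs. Prkg2 passed the filter on low counts through the precursor sums alone, and Pde8a through the oligodendrocyte sums alone, so each had to come out higher there.

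Astrocytes had 2 members above (background 27.1%) and 3 below (background 10.5%): Pde8b was 40.3, 58.9 and 54.3 CPM (log2 fold change 1.17, edgeR adjusted p = 0.0027; lost without library 3) and Pde6d 74.2, 125 and 111 CPM (0.63, edgeR adjusted p = 0.033; lost without each library and with no TMM factor). Adcy2 was 74.2, 29.5 and 49.1 CPM in astrocytes and at most 8.26 CPM in any library of the other non-neuronal classes, with no test in this fit. Microglia had 1 member above (background 16.2%) and 4 below (background 8.38%). That member, Pde3b, which insulin and cGMP regulate in other tissues, was 107, 162 and 89.1 CPM in microglia (edgeR adjusted p = 4.19e-11) against 22.8, 13.7 and 0 CPM in MHC class II myeloid cells. The MHC class II myeloid cells had 0 members above in edgeR (background 14.8%; 1 at an unadjusted p under 0.05, and 0 called by DESeq2) and 4 below (background 8.85%). Adcy7, known from blood cells, was 23.8, 45.4 and 53.5 CPM in microglia and 53.1, 20.5 and 36.3 CPM in MHC class II myeloid cells, with no test.

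T cells and fibroblasts had too few cells in library 3 to be tested. In libraries 1 and 2, Pde3b was 71.9 and 103 CPM and Pde7a 108 and 61.8 CPM in T cells, on 2 to 5 UMIs each.

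**Figure D4:**
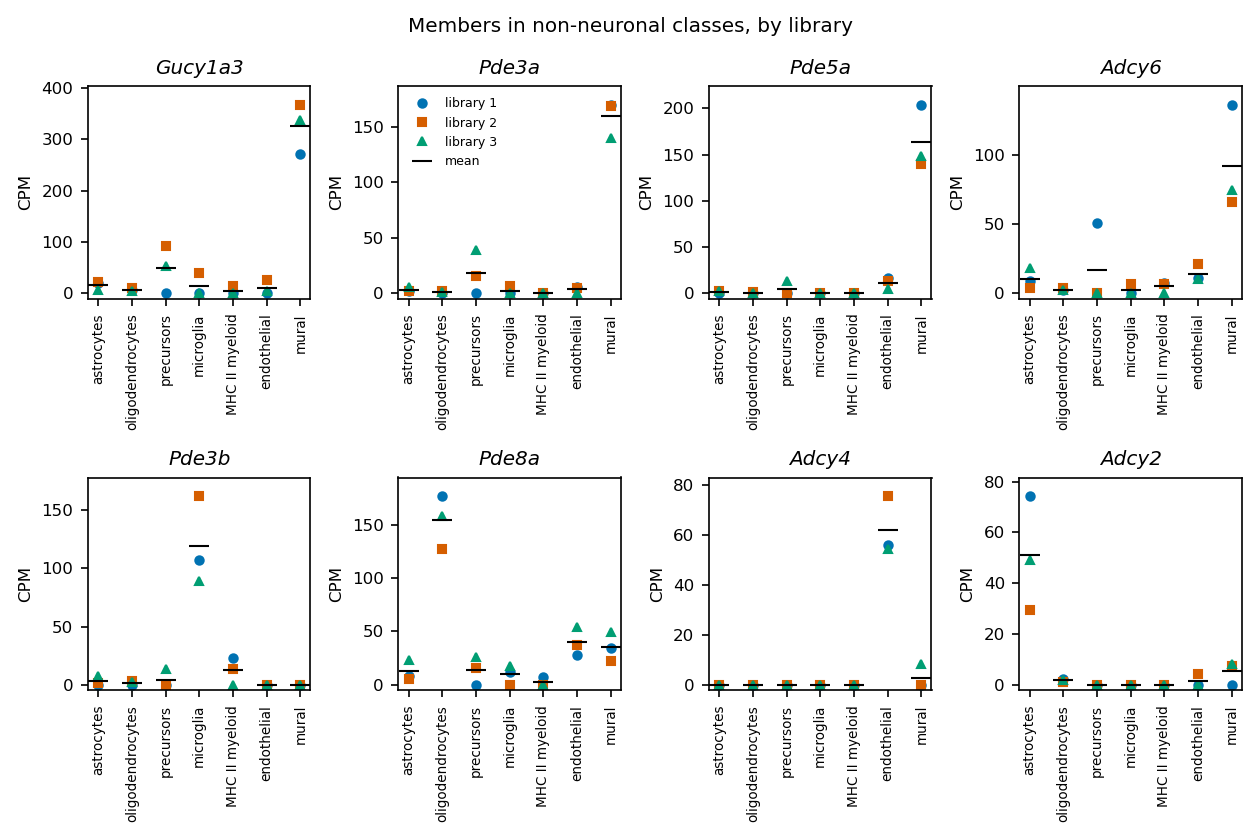
CPM of 8 members (y axes) in 7 non-neuronal classes (x axes), with a marker for each of the 3 libraries and a bar for the mean. Gucy1a3, Pde3a, Pde5a and Adcy6 are highest in mural cells, Pde3b in microglia, Pde8a in oligodendrocytes, Adcy4 in endothelial cells and Adcy2 in astrocytes.

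Within a family, the make-up also differed by class, given as the share of the family's UMIs in libraries with at least 10 of them. These shares are descriptions with no test, and differences in capture between genes are part of them. Adcy5 took 83.5% ± 5.3 of adenylyl cyclase UMIs in Drd1-type and 85.1% ± 4.75 in Adora2a-type neurons (SD, n = 3), but 16.2% ± 11.8 in glutamatergic neurons, where Adcy1 took 33.6% ± 16 and Adcy2 24.8% ± 6.93. Adcy2 took 46.8% ± 19.5 in astrocytes and Adcy4 49% ± 6.15 in endothelial cells. In oligodendrocytes Adcy5 took 76.1% ± 3.76, of only 37 to 80 cyclase UMIs per library, where the neuronal gene Gad1 was at 4.66, 41.5 and 4.8 CPM. Whether those Adcy5 UMIs are neuronal RNA was not tested.

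Among calcium-dependent phosphodiesterases, Pde1b took 66.9% ± 8.79 in Drd1-type and 77.6% ± 10.8 in Adora2a-type neurons, and Pde1a 67.9% ± 22.9 in glutamatergic neurons (SD, n = 3). Among regulatory subunits of PKA, Prkar1a took 83.7% ± 5.57 in oligodendrocytes and 75.5% ± 6.56 in astrocytes, but 43.4% ± 5.78 and 45.4% ± 5.17 in the Drd1-type and Adora2a-type neurons, with Prkar2b at 17.8% ± 0.687 and 18.7% ± 2.01 there. In glutamatergic neurons Prkar1b took the largest share, 50.6% ± 6.23. Among PDE4 genes, Pde4b took 90.3% ± 3.13 in oligodendrocytes and 62.8% ± 4.53 in Drd1-type neurons, and Pde4a 57% ± 9.09 in glutamatergic neurons (SD, n = 3).

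**Figure D5:**
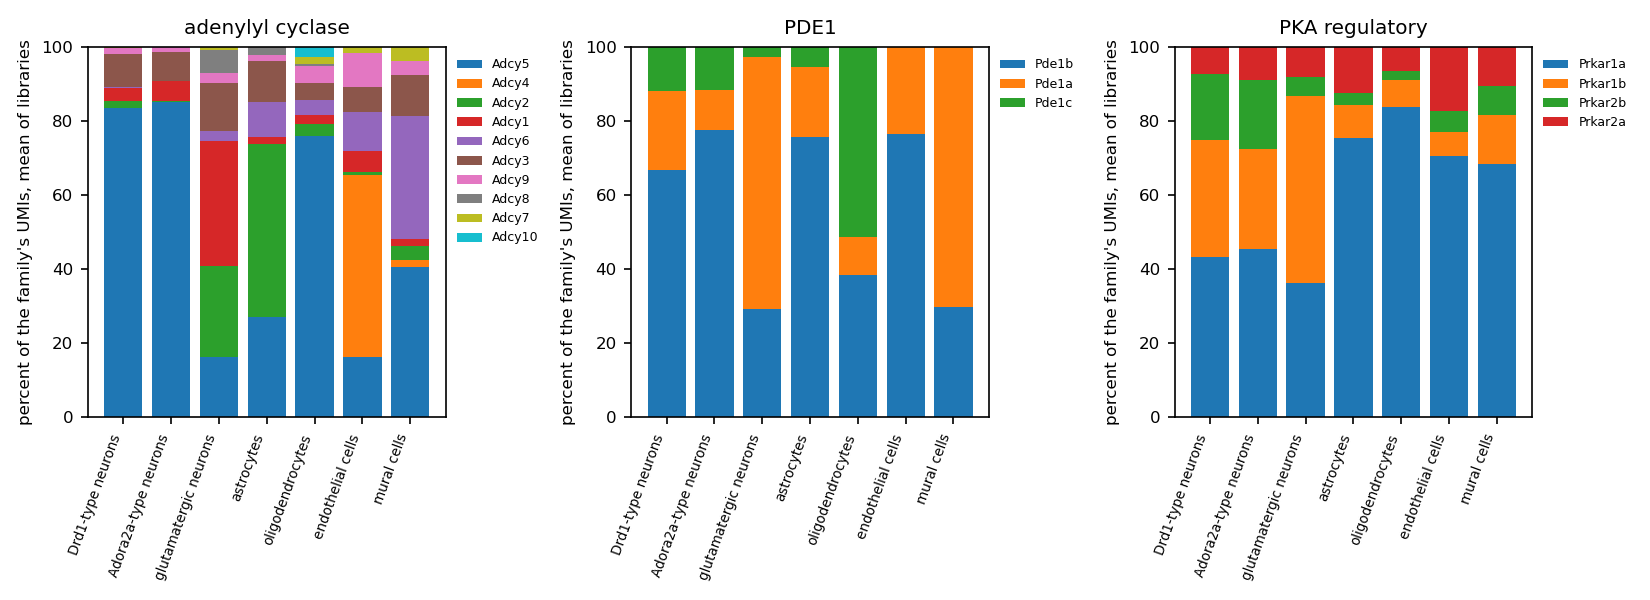
Mean share (percent, y axis) of the UMIs of adenylyl cyclases, calcium-dependent phosphodiesterases (PDE1) and PKA regulatory subunits that each gene took in 7 classes (x axis), over libraries with at least 10 UMIs of the family. Adcy5 takes 83.5% and 85.1% in the 2 spiny types and 16.2% in glutamatergic neurons.

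The remaining members were sparse or outside the family. Adcy8, which calcium stimulates, and Gucy2g, a receptor-type guanylyl cyclase, were highest in glutamatergic neurons, at 12.7, 25.9 and 30.7 CPM and 12.7, 25.9 and 33.2 CPM. Adcy9 reached 24.5 CPM in Drd1-type neurons of library 3, and Pde9a, which is specific for cGMP, was 14.5, 18.5 and 24.5 CPM in Drd1-type neurons and gave no call between the spiny types (log2 fold change 0.60, edgeR adjusted p = 0.484). Adcy10, Gucy2e, Pde11a and Pde6a, the rod photoreceptor enzyme, had 11, 23, 28 and 10 UMIs in the whole matrix, so their class levels were not readable at this depth. Of the 5 genes outside the family, all were tested between the spiny types and 0 passed in edgeR or DESeq2 (0 at an unadjusted p under 0.05 in either).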

How the data were processed

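Single cells were measured with the 10x Genomics 3′ v2 kit, per the labels' protocols. The authors deposited whole UMI counts per gene and cell in 1 pooled matrix of 28001 features and 11625 cells, made with Cell Ranger 3.0.0 per the file headers, on mm10 per the submitters' processing notes; the annotation release is not given in the sources used here. Cells with fewer than 300 genes or over 20% of UMIs from mitochondrial genes were dropped, leaving 10291, and the highest Scrublet scores (scanpy 1.11.5) were removed at 0.8% per 1000 cells. A cell joined a class with UMIs of at least 2 of 6 markers of a list when no other list reached 2. Neurons with a Drd1 or an Adora2a UMI, and no other neuron gate, were the spiny types, and 2 of 6 cortical markers made a glutamatergic neuron. UMIs of the cells of a class were added up within each library, and classes of at least 10 cells in each library were compared.

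Sums were tested with edgeR 4.0.16 (quasi-likelihood, robust prior, TMM, filterByExpr, library as block, Benjamini-Hochberg over all genes tested, threshold 0.05). The library pairs the sums by design: each library yields 1 sum for either class. Standard errors are the log2 fold change over the square root of F, so they too draw on all genes tested. The fit was also run on simulated counts with the same fixed spread for all genes and no library effect beyond depth. That run could not test the fit on the spread of these libraries. Marker genes of the gates, construct and mitochondrial genes were left out of the tested tables. Shares and CPM cover counting error only through the UMIs given beside them. DESeq2 1.42.0, other scalings, filters, gates and depths, and leaving out each library were the alternatives. The text names members called between the neuron types, the leading members per class, members of known roles in this tissue and partners called; sparse members are named so that each is accounted for. Members, lists and tests were chosen with earlier results of these data known. Sequences are from RefSeq (GRCm38.p6); 47 of 47 members matched a gene record and 39 a promoter entry.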

Additional observations from a re-analysis of the deposited data

How the results depend on the processing

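Between Drd1-type and Adora2a-type neurons, 3 to 5 members passed under each alternative with the library as block, against 4 as reported, and 3 to 4 when a library was left out. With no replicate block the count was 0 (3 members at an unadjusted p under 0.05 in edgeR), and for partner genes 1 against 5; the pairing by library thus decides these calls. For partner genes DESeq2 gave 3, and leaving out libraries 5 to 6. Between spiny and glutamatergic neurons, 5 to 23 members passed when a library was left out, against 15; 23 without library 1, where more members passed the filter. For each class against the others, 47 to 59 values passed when a library was left out (47 without library 3) against 72. Between neurons and non-neuronal cells, leaving out libraries gave 26 to 33 members against 31. The cause of these moves was not tested. The share of all genes that passed under each alternative was not worked out, so the moves cannot be called particular to the members.

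Of 1246 recomputed gene values, 1144 kept direction and side of the threshold, 73 lost the call, 13 gained it and 16 changed sign, none of them called as reported. Between the spiny types, Prkaca went to 0.01 with no TMM factor, 0.00 with the broader gate, 0.08 without cells carrying Tshz1 or Pcdh8, 0.02 without those carrying Isg15 or Ifit1 and from -0.07 to 0.07 when a library was left out. Pde1c went to 0.05 with DESeq2, 0.09 with no replicate block, 0.14 without Tshz1 or Pcdh8 cells, and from -0.17 to 0.22 (without library 2) when a library was left out. Pde4d went to 0.01 (DESeq2) and ranged from -0.29 to 0.04 with a library left out, Adcy3 went to -0.03 (without Tshz1 or Pcdh8 cells) and ranged from -0.03 to 0.36 with a library left out, and Pde8b to -0.01 (without Tshz1 or Pcdh8 cells). With a library left out, Pde4d ranged from -0.35 to 0.63 in neurons over non-neuronal cells, and Pde1a from -1.81 to 0.08 in spiny over glutamatergic neurons. Prkar1b passed between the spiny types with no TMM factor (0.32, edgeR adjusted p = 0.0273) and in cells of at least 1000 UMIs (0.33, 0.0406), and Pde10a with the broader gate (-0.22, 0.0463). The 2 settings that leave out cells by Tshz1, Pcdh8, Isg15 or Ifit1 were chosen after seeing the data.

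Depth limits the small classes: 3 UMIs equal 152 CPM in the precursor cells and 102 CPM in the mural cells of library 1, so a count of 0 there allows levels up to these, and values near or under them rest on a few UMIs.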
